A study of Mus musculus with 6 samples.

Results

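The genes described here make cholesterol and move it within and out of the cell, 31 in all. They were measured in 32D cells, a mouse myeloid line kept alive by interleukin-3, on 6 one-colour expression arrays. Of the 31 genes, 28 have a probe set of their own among the 18194 genes named on the arrays, and each is represented by its probe set of highest mean over the 6 arrays. Acat2, Nr1h2 and Soat1 are named only. Abca1 lay below the filter on dim probe sets, a mean log2(signal + 16) of 4.86 or a signal of 12.9, so 27 of the 31 entered the tests, among 10209 genes tested.

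In 3 samples miR-9 and miR-9* were expressed from the construct labelled C2-MiR-9, and in 3 they carried the empty vector, labelled A1-EV. Both groups were grown in RPMI medium with 10% fetal calf serum, penicillin and streptomycin and 10 ng/ml murine interleukin-3, and the samples of each group are numbered 1 to 3. The replicates are called independent, without a word on how cultures were kept apart or whether a line is 1 clone, so p-values measure the spread between these samples, which may be technical. Median signals were between 12.0 and 15.2, Spearman correlations between arrays over all probe sets between 0.919 and 0.942, and 0 pairs of arrays were identical. Same-numbered samples of the 2 groups deviated together from their group means (correlations across genes of 0.491, 0.616 and 0.680), so blocked values, from a model that also holds a term for the replicate number, stand beside results whose call they change. Of 12 myeloid genes used to check the label, 10 lay above the filter, and Elane and Cd34 below it. Their differences between samples are given with the other markers. Signals are MAS5 values on a linear scale, given in the order of replicate numbers 1, 2 and 3. They are not compared between genes, because probe sets differ in brightness. Adjusted p-values are limma's with Benjamini-Hochberg adjustment over all genes tested, at a threshold of 0.05, each error on a mean signal is an SD (n = 3 arrays), and a log2 fold change is miR-9/9* minus empty vector on the log2(signal + 16) scale, which understates the change of dim genes.

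Animal cells build cholesterol from acetyl-CoA through mevalonate, farnesyl diphosphate, squalene and lanosterol. Transcription of these enzymes is driven by the SREBP factors, which sit in the endoplasmic reticulum bound to the escort protein SCAP. When membrane sterols fall, SCAP carries SREBP to the Golgi, where proteases release its active part, and when sterols are plentiful INSIG proteins hold SCAP back. Excess sterol is taken out of the cell by ABC transporters under the oxysterol receptors LXR. Proliferating myeloid cells need sterol for new membranes and take it up from serum as well as making it.

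MicroRNAs pair with messages through the seed, bases 2 to 8 of the mature strand. The strands that the cells were made to express are shown for their seeds, in capitals, with RefSeq as source (GRCm38.p6), where loci on mouse chromosomes 3, 7 and 13 encode both. The name miR-9* is the older name of the 3p strand. Vector sequences were not used here, and these are the mouse strands. Their seeds differ.
mmu-miR-9-5p: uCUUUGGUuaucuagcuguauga
mmu-miR-9-3p: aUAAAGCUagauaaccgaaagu

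The promoters of 25 of the 31 genes are in the RefSeq table used (GRCm38.p6), and were searched on both strands over the 250 bases before the start site. Those of Hmgcs1, Insig1 and Scap are shown. Scap passed between the arms with the block, while Insig1 and Hmgcs1 passed by replicate number only. Hmgcs1 alone held the sterol response element searched for. The promoter of Idi1 is not shown. Capitals mark the letters TCACNCCAC (a sterol response element), CCAAT (the box bound by NF-Y), GGGCGG (a GC box) and CACGTG (an E-box), each in either orientation. None of these motifs overlaps another in the 3 windows. The Hmgcs1 window is chr13:119690101-119690350, that of Insig1 chr5:28071162-28071411 and that of Scap chr9:110333106-110333355, all on the plus strand.
Hmgcs1 promoter: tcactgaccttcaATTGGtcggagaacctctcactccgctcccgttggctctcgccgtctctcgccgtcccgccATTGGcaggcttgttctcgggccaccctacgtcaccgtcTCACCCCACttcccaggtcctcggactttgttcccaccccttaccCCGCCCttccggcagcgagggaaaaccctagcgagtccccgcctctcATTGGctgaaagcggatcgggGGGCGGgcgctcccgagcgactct
Insig1 promoter: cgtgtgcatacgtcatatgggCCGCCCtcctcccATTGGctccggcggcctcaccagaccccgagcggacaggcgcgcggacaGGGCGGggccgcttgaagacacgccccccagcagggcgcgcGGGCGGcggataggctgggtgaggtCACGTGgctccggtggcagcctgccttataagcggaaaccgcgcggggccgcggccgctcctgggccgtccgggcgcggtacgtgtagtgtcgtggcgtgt
Scap promoter: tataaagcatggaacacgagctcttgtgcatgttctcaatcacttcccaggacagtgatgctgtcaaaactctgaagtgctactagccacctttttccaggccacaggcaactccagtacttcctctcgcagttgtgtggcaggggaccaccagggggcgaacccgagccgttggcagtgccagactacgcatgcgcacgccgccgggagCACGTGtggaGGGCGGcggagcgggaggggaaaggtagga
The sterol response element, as TCACCCCAC, begins 137 bases before the start of Hmgcs1 and was found in 1 of the 25 promoters, against 1.22% of the 27025 genes in the table and 1.25% of the 8374 tested genes matched to it. CCAAT was in 21 of the 25, among them all 14 enzyme promoters matched, against 40.7% of tested genes, and Scap was 1 of the 4 without it. The GC box was in 22 of the 25, against 63.8% of tested genes. The E-box was in 6 of the 25, against 10% of tested genes. It lies 101 bases before the start of Insig1 and 40 before the start of Scap whose window is shown. The window of the other Scap start, chr9:110333038-110333287, holds none of these motifs. These are matches of letters. A window without a match says nothing about a factor, and elements that depart from the letters were not searched.

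Cells with miR-9/9* had more message for Scap, the SREBP escort, and this was the only one of the 27 genes to pass in the comparison of the arms, and only when the replicate number was a block. Without the block 0 of the 27 passed in limma, against 0.0588% of all genes tested, or 6 genes, and 2 of the 27, Scap and Idi1, had an unadjusted p under 0.05, against 4.6% of all genes. With the block 1 of 27 passed, or 3.70%, against 2.96% of all genes (302 genes). It was higher, against 1.51% of all genes called higher and 1.45% called lower, and 4 of the 27 had an unadjusted p under 0.05, Scap, Idi1, Insig1 and Ebp, against 17% of all genes. The median log2 fold change of the 27 was 0.02, beside 0.01 for all genes tested. Fold changes lay between -0.27 for Tm7sf2 and 0.49 for Scap, and 0 exceeded 0.5 in size. The count of called genes is near the background in both fits.

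**Figure D1:**
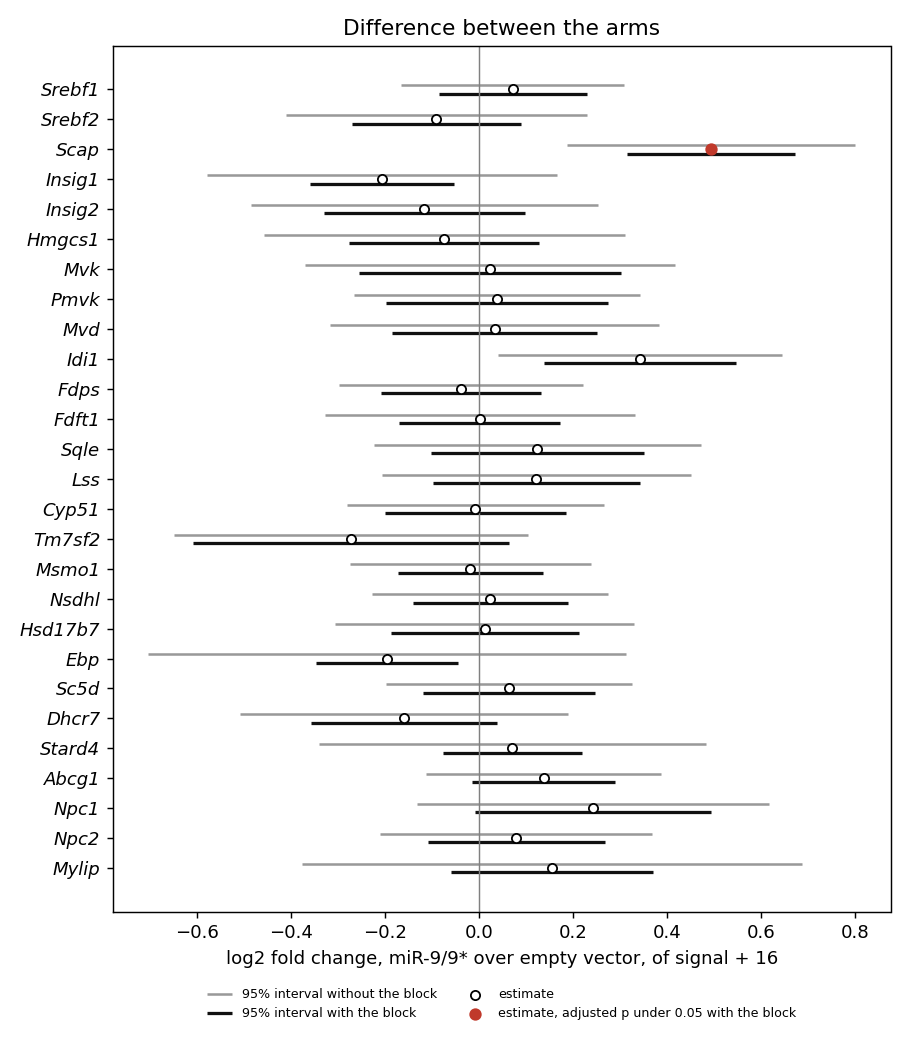
Log2 fold change of signal + 16, miR-9/9* over empty vector, for the 27 genes tested, ordered by role. Circles are estimates, grey bars 95% intervals without the replicate number as a block and black bars 95% intervals with it. Scap, at 0.49, is the filled circle and the only gene with a blocked adjusted p under 0.05.

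Among the regulators, Scap (probe set 1433520_at) had signals of 302, 262 and 259 with miR-9/9*, against 216, 164 and 194 with the empty vector. All 3 miR-9/9* samples lay above all 3 empty vector samples. The means were 275 ± 24.1 and 191 ± 26.1, a log2 fold change of 0.49 (95% interval 0.31 to 0.67 with the block, adjusted p = 0.0133). Without the block the interval was 0.19 to 0.80 and the adjusted p 0.608. Within replicate numbers 1, 2 and 3 the differences were 0.46, 0.63 and 0.39. The blocked call was lost when dim probe sets were kept (adjusted p = 0.0568) and when limma's variance trend was dropped (0.0905). The other probe set of Scap lay below the filter and gives no second measurement.

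The SREBP genes themselves differed little between the arms. Srebf1, which encodes the factor that also drives fatty acid synthesis, had signals of 277, 288 and 286 with miR-9/9*, against 260, 283 and 265 with the empty vector. Its log2 fold change was 0.07 (95% interval -0.09 to 0.23 with the block). Srebf2, which encodes the factor most tied to cholesterol synthesis, had 190, 167 and 155 with miR-9/9*, against 207, 185 and 157 with the empty vector. In both arms sample 1 was highest and sample 3 lowest, and the log2 fold change was -0.09 (95% interval -0.27 to 0.09 with the block). A dimmer Srebf2 set above the filter, 1452174_at, had sample 2 highest and sample 3 lowest in both arms. Its log2 fold change was -0.0057.

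Insig1, which encodes an anchor that retains SCAP when sterols are plentiful, had signals of 378, 418 and 294 with miR-9/9*, against 458, 458 and 347 with the empty vector. It was lower with miR-9/9* within each of the 3 replicate numbers, yet the groups overlapped. The log2 fold change was -0.21 (95% interval -0.36 to -0.05 with the block) and did not pass (adjusted p = 0.159 with the block). Its relative Insig2 had 116, 130 and 106 with miR-9/9*, against 133, 154 and 103 with the empty vector, a log2 fold change of -0.12. Of the 2 further Insig2 probe sets above the filter, 1417982_at stood at 0.04 and 1417980_a_at at -0.17.

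Of the 6 enzymes that lead to farnesyl diphosphate, 0 passed in either limma fit of the arms (1, Idi1, with an unadjusted p under 0.05). Over all genes 0.0588% passed without the block and 2.96% with it. Idi1, the isopentenyl diphosphate isomerase, stood apart from the other 5 in its values, at 4161, 3592 and 3407 with miR-9/9*, against 3230, 2554 and 3021 with the empty vector. All 3 miR-9/9* samples lay above all 3 empty vector samples, and Scap and Idi1 were the only 2 of the 27 genes with the arms fully separated in this direction (7.41%, against 5.07% of all genes), while 0 were separated the other way (against 4.74%). The means were 3720 ± 393 and 2935 ± 346, a log2 fold change of 0.34 (95% interval 0.14 to 0.55 with the block, adjusted p = 0.0861). Its second probe set, at 2478, 2463 and 2061 with miR-9/9* and 2330, 1749 and 1812 with the empty vector, was higher in the same 3 pairs with a log2 fold change of 0.25. The brighter set passed with the block after quantile normalization (adjusted p = 0.0138) and without replicate 3 of both arms (0.00443), and in none of the other 10 blocked fits.

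Hmgcs1, the HMG-CoA synthase at the head of the route, had signals of 946, 954 and 795 with miR-9/9*, against 1204, 916 and 761 with the empty vector. Empty vector sample 1 was the highest of the 6 and both samples 3 were the lowest. The log2 fold change was -0.07 (95% interval -0.28 to 0.13 with the block), and of the 3 further probe sets above the filter 1433443_a_at and 1433444_at stood at -0.14 and -0.15 and the dimmest, 1433446_at, at 0.04.

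The kinases and the decarboxylase of the mevalonate steps had overlapping groups. Mvk had 64.7, 45.3 and 73.7 with miR-9/9*, against 65.3, 53.1 and 59.4 with the empty vector. Pmvk had 136, 106 and 128 with miR-9/9*, against 112, 123 and 123 with the empty vector. The decarboxylase Mvd had 150, 135 and 127 with miR-9/9*, against 164, 113 and 128 with the empty vector. Log2 fold changes of these 3 lay between 0.02 and 0.04, with block intervals that reach no further than -0.26 and 0.30. Fdps, the farnesyl diphosphate synthase at the branch point to protein prenylation, had 979, 979 and 1176 with miR-9/9*, against 1115, 1006 and 1089 with the empty vector, a log2 fold change of -0.04.

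Of the 11 enzymes from squalene onwards, 0 passed in either limma fit of the arms (1, Ebp, with an unadjusted p under 0.05 in the blocked fit), and their median log2 fold change was 0.00. Beside that count, 0.0588% of all genes passed without the block and 2.96% with it. Fdft1, squalene synthase, had 440, 382 and 390 with miR-9/9*, against 497, 355 and 371 with the empty vector. Sqle, the squalene epoxidase, had 561, 657 and 523 with miR-9/9*, against 646, 509 and 450 with the empty vector. Lss, which closes the sterol rings to lanosterol, had 172, 166 and 164 with miR-9/9*, against 187, 135 and 139 with the empty vector. In each of these 3 the miR-9/9* signals lay within or near the range of the empty vector samples, and log2 fold changes were 0.00, 0.12 and 0.12.

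Ebp, the sterol isomerase, had the pattern of lower values in each pair, at 451, 340 and 561 with miR-9/9*, against 553, 375 and 632 with the empty vector. Replicate numbers differed far more than arms, with both samples 2 lowest and both samples 3 highest. The log2 fold change was -0.20 (95% interval -0.35 to -0.04 with the block) and did not pass (adjusted p = 0.177 with the block). Dhcr7, a reductase of the last step, was also lower in 3 of 3 pairs, at 157, 111 and 125 with miR-9/9*, against 164, 134 and 142 with the empty vector, a log2 fold change of -0.16 (95% interval -0.36 to 0.04 with the block).

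Cyp51, the lanosterol demethylase, had 300.4, 316 and 292 with miR-9/9*, against 347, 276 and 295 with the empty vector. Its brightest probe set gave a log2 fold change of -0.01, while 1422533_at and 1422534_at stood at 0.16 and 0.31. The sterol reductase Tm7sf2 had 49.1, 50.8 and 68.0 with miR-9/9*, against 83.7, 68.6 and 60.4 with the empty vector. Its pairs were of both signs, and its log2 fold change of -0.27 had the widest block interval of the 27, -0.61 to 0.06.

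The remaining sterol enzymes had log2 fold changes within 0.07 of 0. Msmo1, the methylsterol monooxygenase, had 615, 666 and 712 with miR-9/9*, against 661, 623 and 738 with the empty vector. Nsdhl, the decarboxylating dehydrogenase that acts with it, had 458, 459 and 491 with miR-9/9*, against 500.2, 417 and 471 with the empty vector. The keto-sterol reductase Hsd17b7 had 129, 154 and 121 with miR-9/9*, against 139, 143 and 118 with the empty vector. Groups overlapped for all of them. Sc5d, the sterol desaturase, had 309, 302 and 283 with miR-9/9*, against 301, 254 and 301 with the empty vector. A second, dimmer Sc5d probe set had 72.7, 84.5 and 58.9 with miR-9/9*, against 54.9, 58.4 and 42.3 with the empty vector, with fully separated groups and a log2 fold change of 0.37 that did not pass among probe sets (block adjusted p = 0.148).

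Of the 5 transport genes tested, 0 passed in either limma fit of the arms (0 also at an unadjusted p under 0.05). The shares of all genes called were 0.0588% without the block and 2.96% with it. With miR-9/9*, 3 of the 5 were higher in 3 of 3 pairs, or 60%, against 21% of all genes, a share that rests on 5 genes. Abcg1, a sterol efflux transporter under LXR, had 523, 472 and 472 with miR-9/9*, against 472, 455 and 404 with the empty vector, a log2 fold change of 0.14 (95% interval -0.02 to 0.29 with the block). Npc1, which exports cholesterol from lysosomes, had 112, 80.0 and 77.3 with miR-9/9*, against 80.1, 64.7 and 73.5 with the empty vector. Sample 1 with miR-9/9* was the highest of the 6, and the log2 fold change was 0.24 (95% interval -0.01 to 0.49 with the block). Npc2, the soluble partner that hands sterol to NPC1, had 2185, 2037 and 1948 with miR-9/9*, against 2031, 2178 and 1663 with the empty vector, with overlapping groups.

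The sterol carrier Stard4 had 674, 809 and 563 with miR-9/9*, against 669, 776 and 509 with the empty vector, so that same-numbered samples lay closer to each other than to their own group. Mylip, a ubiquitin ligase induced by LXR, had 194, 186 and 122 with miR-9/9*, against 153, 193 and 104 with the empty vector. Their log2 fold changes were 0.07 and 0.15. Abca1, the main efflux pump for cholesterol and phospholipid, was dim on every array, at 9.36, 10.0 and 3.77 with miR-9/9*, against 4.99, 5.63 and 4.93 with the empty vector, and was not tested. Over the 27 genes, 6 were higher in 3 of 3 pairs (Srebf1, Scap, Idi1, Stard4, Abcg1 and Npc1), or 22.2%, against 21% of all genes, and 4 were lower in 3 of 3 (Srebf2, Insig1, Ebp and Dhcr7), or 14.8%, against 18%.

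**Figure D2:**
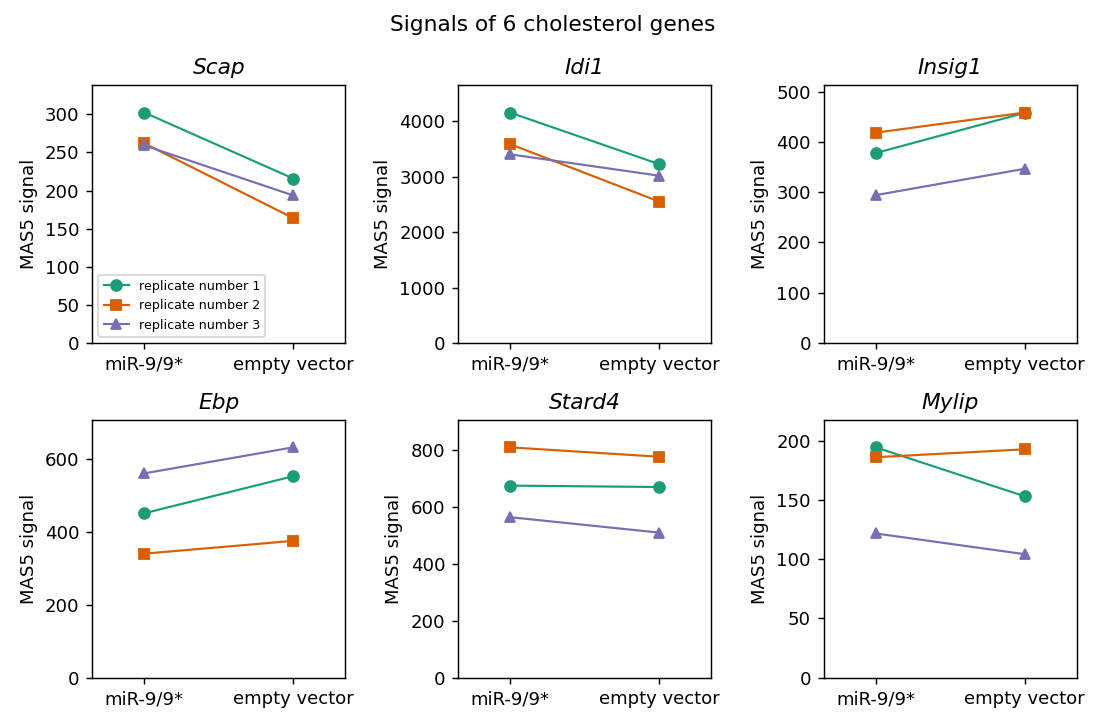
MAS5 signals of 6 genes in each sample, with lines joining the miR-9/9* and empty vector samples of the same replicate number. The arms separate for Scap and Idi1, Insig1 and Ebp are lower with miR-9/9* in each of the 3 pairs, and for Stard4 and Mylip the replicate numbers are farther apart than the arms.

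The replicate number took a larger share of the variation than the arm in most of these genes, as over all genes. In limma's F test over the 3 numbers, with the arm as a term, 6 of the 27 passed, or 22.2%, against 24.3% of all genes tested (2481 genes), and 10 had an unadjusted p under 0.05, against 40.7% of all genes. The 6 were Insig1, Hmgcs1, Fdft1, Ebp, Stard4 and Mylip. Sums of squares on the log2(signal + 16) scale gave the replicate number a median share of 65.4% over the 27 genes, beside 63.7% over all genes, and the arm 9.86%, beside 10.4%. The number had the larger share in 23 of the 27, and in 80.0% of all genes. It has more levels than the arm, which by itself gives it a larger share. None of these figures sets the 27 genes apart from the arrays as a whole.

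**Figure D3:**
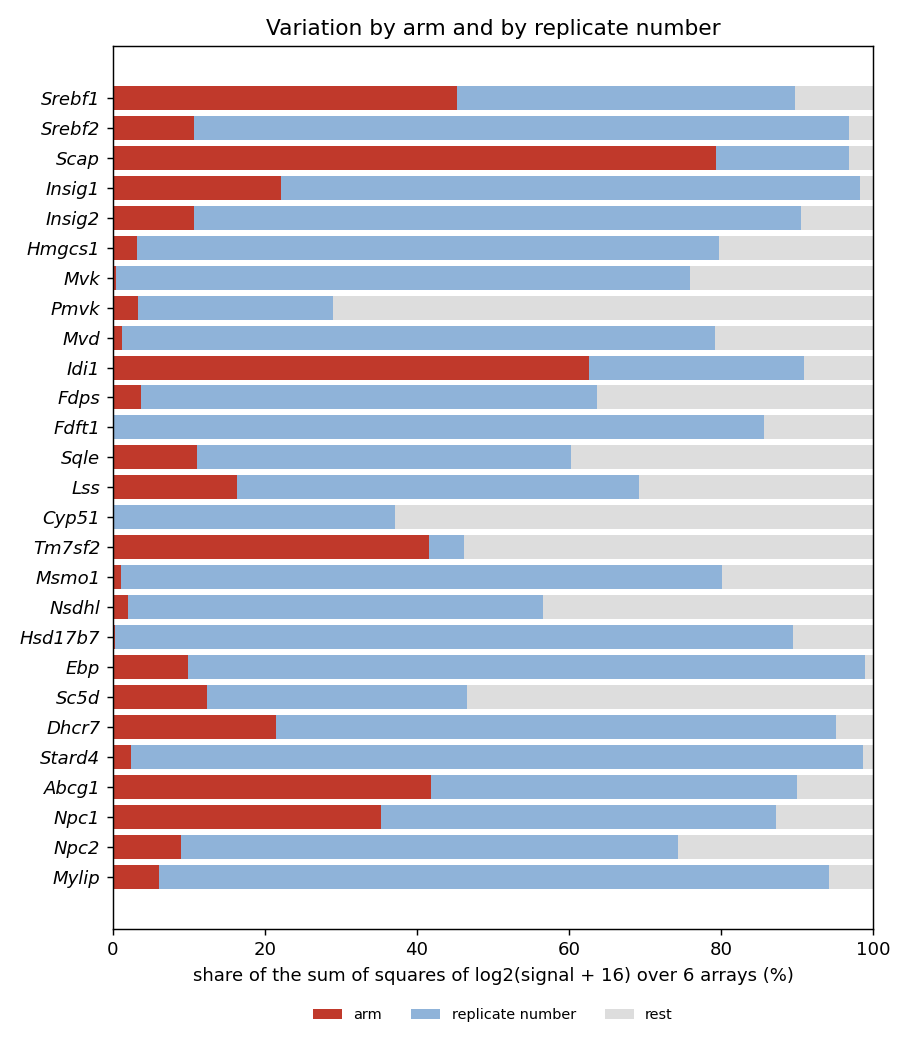
Share of the sum of squares of log2(signal + 16) over 6 arrays that goes with the arm, with the replicate number and with neither, in percent, for the 27 genes tested. Scap, at 79.3% for the arm, and Stard4, at 96.3% for the replicate number, are the extremes.

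Ebp had the smallest adjusted p of the F test (0.00203), with number 2 below number 1 by a difference of -0.47 and number 3 above number 2 by 0.71 on the log2 scale. Stard4 (adjusted p = 0.0055) and Mylip (0.00826) ran the other way, with number 3 against number 2 at -0.55 and -0.67. Insig1 (adjusted p = 0.0115) had number 3 against number 1 at -0.37, and Hmgcs1 (0.0394) at -0.45. Fdft1 (adjusted p = 0.0496) was highest in number 1, with number 2 at -0.33 and number 3 at -0.29 against it. The calls of Ebp, Stard4 and Mylip held in all 14 alternatives. Fdft1 lost its call in 8 of them, Hmgcs1 in 5, among them when empty vector sample 1 (adjusted p = 0.144) or sample 3 (0.133) was left out, and Insig1 in 2, among them when empty vector sample 3 was left out (0.0505).

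Both samples numbered 3 lay below the other 4 for 8 of the 27 genes, or 29.6%, against 21.2% of all genes. They were Srebf2, Insig1, Insig2, Hmgcs1, Hsd17b7, Stard4, Npc2 and Mylip, and so included all but 2 of the 5 regulators. Ebp and Msmo1 had both samples 3 above the rest, against 16.4% of all genes. Both samples numbered 1 lay above the rest for 6 of the 27 (Srebf2, Mvd, Fdft1, Lss, Dhcr7 and Npc1), against 10.6% of all genes. Probe sets of 1 gene could disagree here too: the third Stard4 set, 1429239_a_at, had 259, 257 and 261 with miR-9/9*, against 261, 256 and 272 with the empty vector, while the second, 1455011_at, had 504, 626 and 458 with miR-9/9*, against 510.5, 580.5 and 437 with the empty vector. The second Srebf2 set was highest in both samples 2. Lss set 1426913_at had 78.7 and 80.8 in samples 1, miR-9/9* first, against 107 and 83.6 in samples 2. Further sets of Insig2, Hsd17b7, Npc2 and Msmo1 above the filter also departed from the pattern of samples 3 given here.

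Most enzymes lay above their own means in empty vector sample 1 and below them in empty vector sample 2. This pattern was noticed after the values were seen and is given without a test. In empty vector sample 3 the enzymes went both ways. Of the 17 enzymes from Hmgcs1 to Dhcr7, 8 had their highest signal in empty vector sample 1, or 47.1%, against 14.6% of all genes tested. They were Hmgcs1, Mvd, Fdft1, Lss, Cyp51, Tm7sf2, Nsdhl and Dhcr7, each by its brightest probe set. Dimmer sets of Hmgcs1 (1433446_at), Lss (1426913_at) and Cyp51 (1422534_at) were highest in a miR-9/9* sample. The other further sets of these 8 genes above the filter were highest in empty vector sample 1. In the lists of other genes read below, the share highest in empty vector sample 1 was 33.3% in fatty acid synthesis and 31.25% in the prenylation branches. In sterol handling it was 18.75% and in SREBP processing 10%. In empty vector sample 2, 7 of the 17 had their lowest signal, or 41.2%, against 17.3% of all genes. The median deviation of the 17 from their own means was 0.18 in empty vector sample 1, -0.13 in sample 2 and -0.04 in sample 3, beside 0.02, 0.00 and -0.04 for all genes. In the miR-9/9* samples it was 0.04, -0.00 and 0.03.

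**Figure D4:**
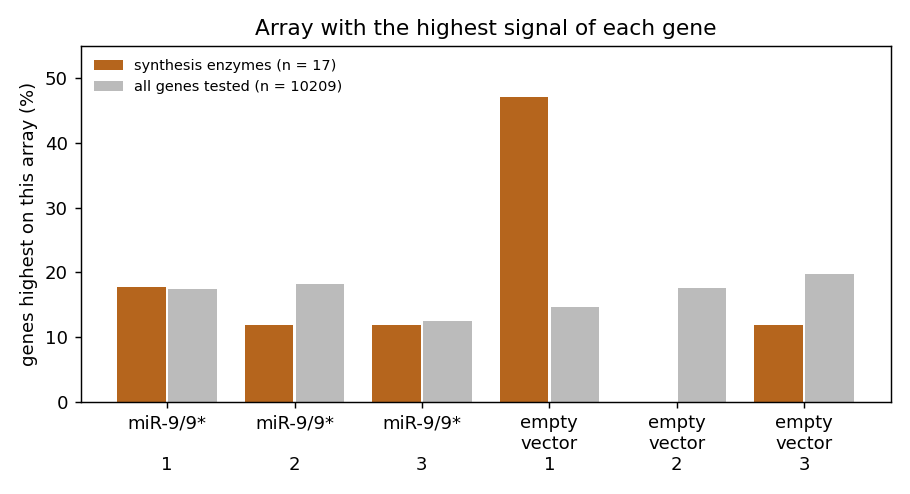
Percent of genes with their highest signal on each of the 6 arrays, for the 17 cholesterol synthesis enzymes and for all 10209 genes tested. Empty vector sample 1 holds 47.1% of the enzymes and 14.6% of all genes.

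The enzyme probe sets repeat the same samples: of 32 above the filter, 15 were highest in empty vector sample 1, or 46.9%, against 15.1% of all probe sets above it. Sets of 1 gene measure the same RNA and are no further replicates. With arrays quantile normalized the enzyme count was 9 of 17 (13.6% of all genes), and with arrays centred on their medians 8 of 17 (10.5%). The differences between the arms varied among the pairs. Each pair holds 1 array of each arm, so an effect of the pair cannot be told apart from differences between single arrays. The counts by pair reuse the empty vector samples described above and are not a separate result. In pair 1, 14 of the 17 enzymes were lower with miR-9/9*, or 82.4%, against 48.9% of all genes, with a median log2 difference of -0.11. In pair 2, 11 were higher, or 64.7%, against 52.1% of all genes, and in pair 3 also 11, against 52.6%, with medians of 0.10 and 0.06. The medians over all genes were 0.01 in each pair. Of the 11 enzymes from squalene onwards 10 were lower in pair 1, all but Sc5d.

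**Figure D5:**
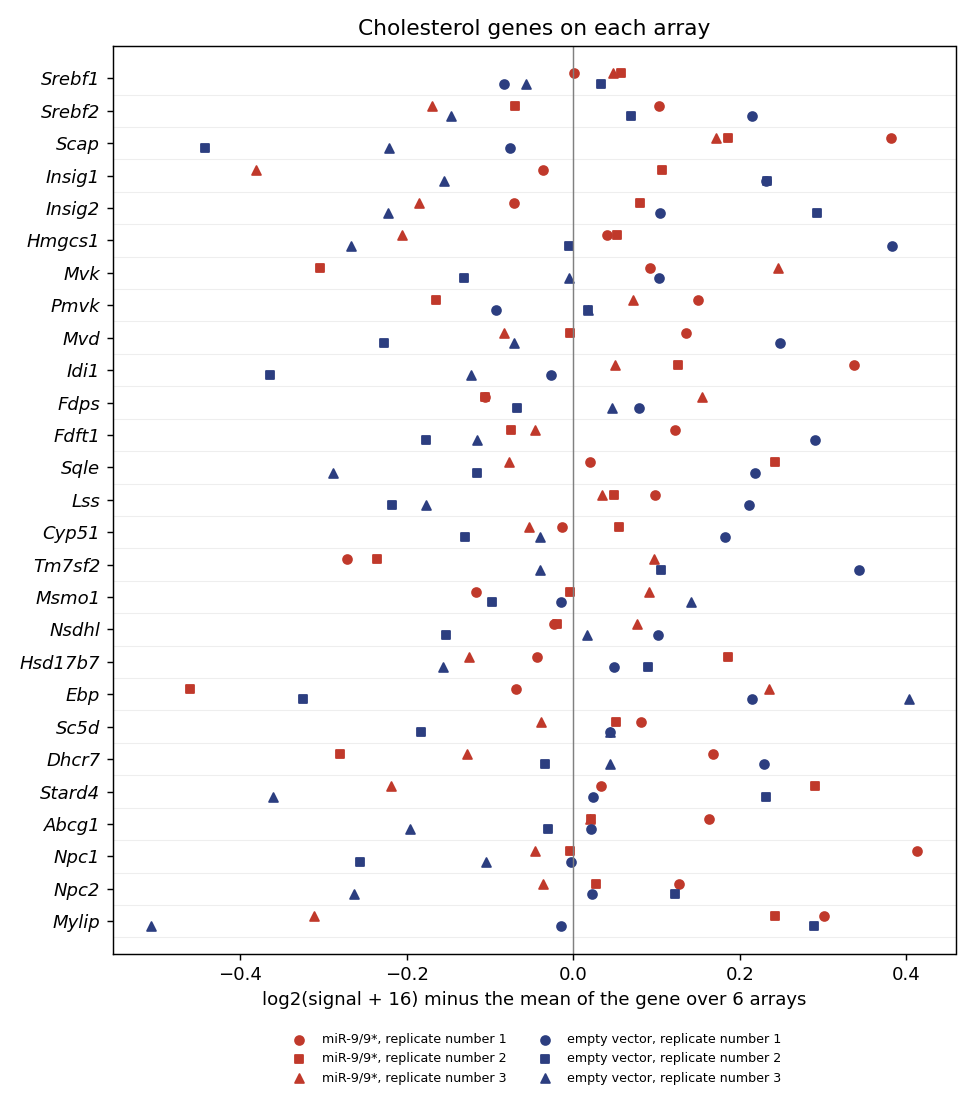
Log2(signal + 16) of each of the 27 genes in each sample, as the difference from the mean of the gene over 6 arrays. Red is miR-9/9*, blue the empty vector, and circles, squares and triangles are replicate numbers 1, 2 and 3. Scap is the gene whose red and blue points lie farthest apart, and blue circles mark empty vector sample 1, which is the highest point for 8 of the 17 enzymes.

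Genes around the pathway were read from 4 lists. Of 10 tested genes of SREBP processing, sterol-regulated degradation and sterol reduction, 1 rose with the block, against 1.51% of all genes, and 0 fell: Mbtps2, the intramembrane protease that releases SREBPs in the Golgi after SCAP has carried them there. Mbtps2 had signals of 312, 334 and 267 with miR-9/9*, against 247, 266 and 213 with the empty vector. The means were 305 ± 34.3 and 242 ± 26.6, with fully separated groups and a log2 fold change of 0.31 (95% interval 0.16 to 0.47 with the block, adjusted p = 0.0489, and 0.999 without it). That call lies at the threshold and was lost in 9 of the 11 other blocked fits, with adjusted p between 0.0508 and 0.191. Its partner in cleavage, Mbtps1, named here after its values were seen, had 298, 323 and 285 with miR-9/9*, against 401, 370.3 and 314 with the empty vector, and did not pass (log2 fold change -0.24, adjusted p = 0.148 with the block).

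The arm took a median of 53.7% of the sum of squares in these 10 genes, beside 10.4% over all genes tested. Groups were fully separated for 5 of the 10. Mbtps2, Ube2g2, a ubiquitin-conjugating enzyme, and Sec23a, a coat protein of transport from the endoplasmic reticulum, lay higher with miR-9/9*, or 30%, against 5.07% of all genes. Rnf145, a sterol-responsive ubiquitin ligase, and Paqr3, a Golgi protein that binds SCAP, lay lower, or 20%, against 4.74%. These genes were named after their values were seen, and apart from Mbtps2 none of them passed. Directions were mixed, with a median log2 fold change of 0.10.

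Of 16 tested genes of the prenylation, dolichol and ubiquinone branches, 1 fell with the block, against 1.45% of all genes, and 0 rose. Icmt, the methyltransferase that finishes prenylated proteins, had 86.2, 68.9 and 72.6 with miR-9/9*, against 124, 102 and 105 with the empty vector. The means were 75.9 ± 9.08 and 111 ± 11.7, with fully separated groups and a log2 fold change of -0.46 (95% interval -0.68 to -0.25 with the block, adjusted p = 0.0382, and 0.753 without it). The call was lost without replicate 1, 2 or 3 of both arms (adjusted p = 0.14, 0.0877 and 0.0678), without a filter (0.127) and without a variance trend (0.0815). Of 15 tested genes of fatty acid synthesis and desaturation and 16 of lysosomal and membrane sterol handling, 0 passed with the block in either list in limma (2 and 0 with an unadjusted p under 0.05), against 2.96% of all genes. Without the block 0 passed in any of the 4 lists, with 1 gene each of the prenylation and SREBP processing lists at an unadjusted p under 0.05. Their medians of log2 fold change were -0.00 and -0.01, and that of the prenylation list was 0.03.

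By replicate number, 14 genes of these lists passed, 5 of 15 in fatty acid synthesis (33.3%), 3 of 16 in the prenylation branches (18.8%), 1 of 10 in SREBP processing and 5 of 16 in sterol handling (31.2%). The share over all genes was 24.3%, and these shares lie on both sides of it. The desaturase Fads1 had 513, 661 and 375 with miR-9/9*, against 526, 570.3 and 332 with the empty vector (adjusted p = 0.00195), lowest in both samples 3 as Stard4, Mylip and Insig1 were. The desaturase Fads2, with 412, 432 and 305 under miR-9/9* and 422, 388 and 296 under the empty vector, and the acetoacetyl-CoA synthetase Aacs also had both samples 3 lowest (adjusted p = 0.00961 and 0.0215). Acss2, the acetyl-CoA synthetase, had 389, 260.3 and 330.0 with miR-9/9*, against 406, 302 and 375 with the empty vector (adjusted p = 0.0107). Of the 15 fatty acid genes 8 had both samples 3 below the rest, or 53.3%, against 21.2% of all genes.

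Among the other lists, the prenyltransferase subunits Pggt1b (adjusted p = 0.00876) and Fnta (0.0386) and the dolichol synthesis subunit Nus1 (0.0265) passed the F test. Lbr, a sterol reductase of the inner nuclear membrane, passed at 0.0438 and lost the call in 7 of 14 alternatives. In sterol handling the lysosomal membrane protein Scarb2 (adjusted p = 0.0128), the oxysterol-binding proteins Osbp (0.0192) and Osbpl2 (0.0294) and the lipoprotein receptor Scarb1 (0.0194) had the smallest adjusted p. In pair 1, 14 of 15 fatty acid genes, 13 of 16 prenylation branch genes, 5 of 10 SREBP processing genes and 9 of 16 sterol handling genes were lower with miR-9/9*, against 48.9% of all genes. Pair 1 again holds empty vector sample 1.

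Of the 10 myeloid genes above the filter, 1 fell with the block, Csf2rb, against 1.45% of all genes, and 0 rose. By replicate number 5 of these 10 passed, against 24.3% of all genes. Sums of all 12 ran between 7043 and 11648 with miR-9/9* and between 7809 and 10453 with the empty vector. Markers of other cell types also differed between the samples. Summed signals of 11 late neutrophil markers, 8 of them above the filter, were 3128, 739 and 1441 with miR-9/9*, against 4409, 1544 and 1617 with the empty vector, highest in empty vector sample 1. Without Ngp, the brightest, the sums were between 610 and 1074 with miR-9/9* and between 806 and 1898 with the empty vector. With the block 4 of the 8 fell (Ltf, S100a8, S100a9 and Stfa2l1), against 1.45% of all genes, while Camp, Mmp8 and Cd177 lay below the filter. Sums of 9 erythroid markers were between 3834 and 3991 with miR-9/9* and between 2781 and 3966 with the empty vector, and Alas2 and Slc4a1 lay below the filter. The brightest set, of the transferrin receptor Tfrc, carries much of that sum, and without it the sums were between 1979 and 2173 with miR-9/9* and between 1266 and 1328 with the empty vector, with no overlap. Of the 7 above the filter 3 rose with the block (Gata1, Klf1 and Rhag), against 1.51% of all genes. Rhag, a membrane protein of red cells, had 477, 330.3 and 444 with miR-9/9*, against 105, 32.4 and 89.0 with the empty vector. Sums of 4 eosinophil markers ran between 274 and 3611 with miR-9/9* and between 255 and 1371 with the empty vector, 2 of the 3 above the filter rose with the block, and Il5ra lay below the filter. Without Epx, the brightest, these sums ran between 219 and 1340 with miR-9/9* and between 151 and 316 with the empty vector. Macrophage markers (5 of 8 above the filter) summed to between 816 and 1176 with miR-9/9* and between 762 and 858 with the empty vector, and 1 rose with the block, F13a1. Mast cell and basophil markers (5 of 8 above the filter) summed to between 47.9 and 254 with miR-9/9* and between 58.5 and 251 with the empty vector. By replicate number 6 of 8 neutrophil, 4 of 7 erythroid, 3 of 3 eosinophil, 3 of 5 macrophage and 4 of 5 mast cell and basophil markers above the filter passed, against 24.3% of all genes. In RNA from whole cultures, fewer cells of a type and less message per cell cannot be told apart, and the part of these markers in the levels of the cholesterol genes was not tested.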

How the data were processed

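The deposited values are MAS5 signals per probe set, per the submitters' processing notes, which give no version. These deposited intensities are linear, with a mean of 100 on each array once 2% is trimmed at each end, and were not normalized further. Of 45101 probe sets, 34958 carry 1 symbol in a 2016 platform annotation, 932 several and 9211 none, and 34754 were matched by Entrez ID to RefSeq GRCm38.p6. Signals were transformed to log2(signal + 16), and probe sets with a mean below the median of all, 4.86, were left out. limma 3.58.1 (R 4.3.3, lmFit and eBayes with trend, two-sided) compared the arms with 4 residual degrees of freedom, or 2 with the replicate number as a block, and an F test over numbers had the arm as a term. The labels give numbers only, so pairing was judged from the data, before calls were compared: every same-number correlation of deviations exceeded 0.1. Scripts were tested on simulated data. The genes, lists, markers and tests were chosen with earlier results of these data known. Named genes are all members, called genes of the 4 other lists (at most 4 per test, by smallest p) and differing probe sets. Alternatives changed the pseudocount, filter, normalization, probe set averaging, variance trend and samples used.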

Additional observations from a re-analysis of the deposited data

How the results depend on the processing

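Without the block, limma called 6 genes between the arms, 2 with a pseudocount of 1, 0 with dim probe sets kept (892 with an unadjusted p under 0.05) and 3 without a variance trend. It called 0 genes without empty vector sample 1 (399 with an unadjusted p under 0.05), 2 without empty vector sample 2 or 3, 1 without miR-9/9* sample 1 or 2 and 7 without miR-9/9* sample 3. In none of these unblocked fits did a cholesterol gene pass (1 or 2 with an unadjusted p under 0.05 in limma in each). With the block 302 genes passed, and 282 and 293 with pseudocounts of 1 and 64, 74 with dim probe sets kept, 263 with a stricter filter, 273 after quantile normalization, 266 after median centring, 232 with probe sets averaged, 38 without a variance trend, and 162, 341 and 357 without replicate number 1, 2 or 3. Of the cholesterol genes 1 passed with the block under both pseudocounts, the stricter filter, median centring and averaging, 2 after quantile normalization, 0 with dim probe sets kept or without a variance trend (4 with an unadjusted p under 0.05 in each), and 1, 1 and 2 without replicate number 1, 2 or 3. Of the other pathway genes 2 passed with the block, 2 with the stricter filter and with averaging, 1 under the other pseudocounts and scalings, 0 with dim probe sets kept or without a variance trend (10 and 11 unadjusted), and 0, 0 and 1 without replicate number 1, 2 or 3 (4, 12 and 10 unadjusted). By replicate number 2481 genes passed, 1057 with dim probe sets kept, 870 without a variance trend and between 1528 (without empty vector sample 3) and 2646 with a sample left out. For the cholesterol genes 6 became 3 without a variance trend, and for the other pathway genes 14 became 4 with dim probe sets kept and 1 without a variance trend. Of 748 recomputed fold changes 53 had the other sign, in 15 genes whose main value was at most 0.15 in size. Quantile normalization gave Mvk -0.0095 and Hsd17b7 -0.0045, and median centring gave Hsd17b7 -0.0087 and Fdft1 -0.019, each with and without the block. Fdft1 stood at -0.00012 with a pseudocount of 64 and -0.0016 with probe sets averaged, where Cyp51 stood at 0.16. With samples left out the log2 fold changes spanned -0.26 to 0.00041 (Insig2), -0.23 to 0.10 (Hmgcs1), -0.095 to 0.18 (Mvk), -0.065 to 0.15 (Pmvk), -0.073 to 0.17 (Mvd), -0.13 to 0.035 (Fdps), -0.087 to 0.15 (Fdft1), -0.10 to 0.086 (Cyp51), -0.076 to 0.047 (Msmo1), -0.047 to 0.10 (Nsdhl), -0.079 to 0.077 (Hsd17b7), -0.023 to 0.14 (Sc5d), -0.092 to 0.20 (Stard4), -0.033 to 0.17 (Npc2) and -0.0598 to 0.35 (Mylip). The cause of these shifts was not tested. The replicate block changed the call of 1 cholesterol gene, Scap. The number of arrays limits what small differences can show.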
